A study of Homo sapiens with 12 samples.

Results

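The enzymes that supply nucleotides and folate-bound one-carbon units to DNA synthesis were examined in SU-DHL-4, an established cell line of diffuse large B-cell lymphoma (DLBCL). The 9 genes TYMS, RRM1, RRM2, TK1, DUT, DCK, CAD, MTHFD1 and SHMT1 were taken from the count table by their symbols, out of 46863 genes listed there. They were chosen with earlier results of these data known. All 9 were among the 16835 genes that passed the filter on low counts and were tested. Cells were exposed for 72 h to DMSO, the vehicle, to 1 µM Entospletinib (Ento), which inhibits SYK (spleen tyrosine kinase), to 0.01 µM AZD5153 (AZD), a bivalent inhibitor of the BET proteins, or to both agents at these concentrations (Ento+AZD). Each of the 4 groups held 3 libraries, described as biological replicates and numbered 1 to 3 in every group, and no other genotype or agent entered. The results hold for 1 cell line at 1 concentration of each agent and 1 time point.

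A dividing cell makes its deoxynucleotides along several joined routes. CAD starts the pyrimidine ring, ribonucleotide reductase (the large subunit RRM1 with the small subunit RRM2) converts ribonucleotides to their deoxy forms, and DUT and TYMS turn deoxyuridine nucleotides into thymidylate. TK1 and DCK return nucleosides to the pool, and SHMT1 and MTHFD1 load folate with the one-carbon units that thymidylate and purine synthesis consume. Transcripts of RRM2, TYMS and TK1 are known to rise as cells enter S phase, which makes them common marks of proliferating lymphoma cells.

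The libraries held 18121993 to 24675830 counted reads, so that 1 count was worth 0.0393 to 0.0564 normalized counts (CPM, scaled to library size by TMM). The labelled cell type was checked by its markers. All 6 B-cell genes and all 4 germinal centre genes examined exceeded 1 CPM in every group, whereas the 4 T-cell genes summed to between 0.534 and 2.19 CPM per library (CD3D and CD2 at 0) and the 4 myeloid genes to between 0.442 and 2.72 CPM. The 4 genes of fibroblasts and epithelium summed to between 37.0 and 126 CPM, of which DCN made up 53.0 to 93.0 CPM in the DMSO libraries, and COL1A2 was at 0. The libraries numbered 2 stood apart from the others for the genes examined here. Replicate 2 had the lowest CPM of its group for 6 of the 9 enzymes with DMSO, 8 with Ento, 7 with AZD and 9 with Ento+AZD, compared to 30.4%, 38.5%, 38.2% and 40.6% of all tested genes. The 8 proliferation reference genes (MKI67, PCNA, TOP2A, CCNA2, CCNE2, CCNB1, MCM2 and E2F1) were lowest in replicate 2 for 4 of 8 with DMSO and for 8 of 8 in each exposed group. The part of this difference in the results below was not tested, and the counts of enzymes that passed in each comparison are therefore also given without the libraries numbered 2.

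Combined exposure lowered 8 of the 9 enzymes. CAD passed as higher, but its libraries overlapped with DMSO and the call was lost in several runs given below. RRM2, TK1, TYMS and RRM1 fell to between 31.7% and 37.4% of their DMSO level, MTHFD1 and DUT to 52.6% and 55.6%, and SHMT1 and DCK to 77.9% and 80.9%, while CAD rose to 124%. At an adjusted p under 0.05 (edgeR quasi-likelihood test, Benjamini-Hochberg over all 16835 genes), 20.8% of all genes were lower and 19.2% higher with Ento+AZD than with DMSO. Of the 9 enzymes 4 were differentially expressed genes (DEGs), which also require a log2 fold change beyond 1 in size, and all 4 were lower, compared to 4.89% of all genes. The median log2 fold change was −0.93 for the 9 enzymes and 0.01 for all tested genes. For the 8 enzymes that fell, no Ento+AZD library reached the lowest DMSO library, which held for 20.0% of all genes in this direction. The RNA came from whole cultures, in which fewer cells in S phase and less RNA of these genes per cell cannot be told apart.

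**Figure D1:**
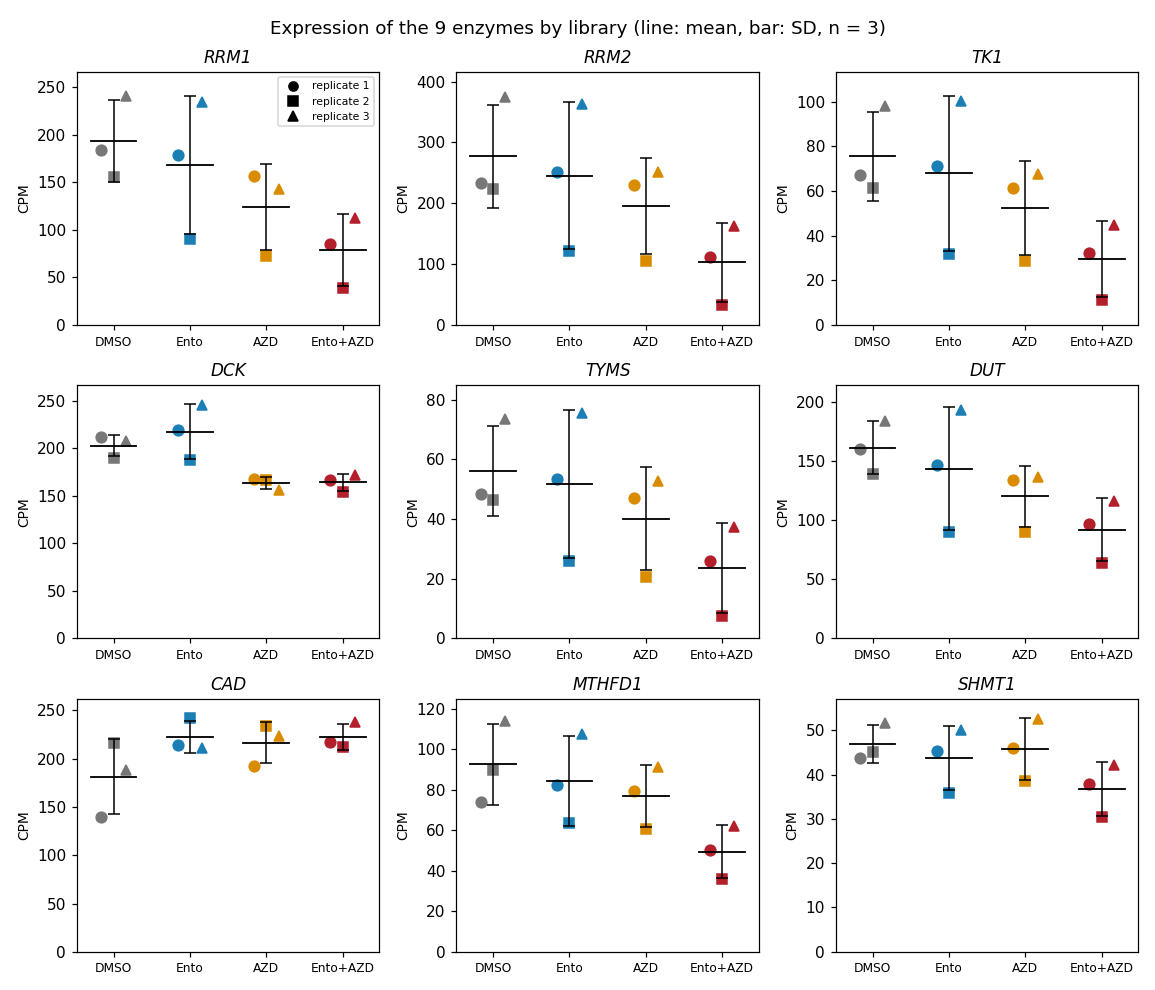
Expression of the 9 enzymes in CPM (y axis, from 0) in each of the 12 libraries, by exposure (x axis). Symbols are libraries by replicate number, lines are means and bars are SDs (n = 3). The Ento+AZD points lie below all DMSO points for every enzyme but CAD, and the squares of replicate 2 are the lowest in most panels.

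The number of the replicate entered the model as a block. The study's methods name a batch term without saying what the batches were, and the replicate number was used in its place. Without the block 1 of the 9 enzymes, MTHFD1, passed with Ento+AZD (log2 fold change −0.90, adjusted p = 0.0321), compared to 14.2% of all genes in either direction, whereas the adjusted p of the other 8 lay between 0.0553 for RRM1 and 0.163 for CAD (edgeR). The fold changes themselves moved little, for example from −1.66 to −1.44 for RRM2 and from −1.42 to −1.30 for RRM1. Without the libraries numbered 2 in all groups, all 9 enzymes passed again, compared to 31.6% of all genes, and RRM2 (−1.15), RRM1 (−1.12) and TK1 (−1.11) remained DEGs, while the log2 fold change of TYMS was −0.95 (adjusted p = 1.73e-04) in place of −1.45, which is short of the DEG limit.

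Ribonucleotide reductase is the only route by which cells make deoxynucleotides from ribonucleotides, and RRM2 is the small subunit that cycling cells produce for S phase. RRM2 (chr2:10120698-10211725 on GRCh38, plus strand) measured 233, 223 and 375 CPM in DMSO replicates 1 to 3 and 112, 33.1 and 163 CPM with Ento+AZD. The highest combined library thus stayed below the lowest DMSO library. With Ento the values were 250.5, 121 and 363 CPM and with AZD 230.4, 105 and 252 CPM, and both single agents overlapped with DMSO through replicates 1 and 3. The fitted log2 fold change with Ento+AZD was −1.66 ± 0.23 (SE, adjusted p = 7.69e-05), the largest in size among the 9 enzymes. The reads of the pseudogenes RRM2P2 and RRM2P3 came to between 4.61% and 6.62% of the RRM2 counts, and the assignment of reads between these near-identical sequences is uncertain.

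The large subunit RRM1 carries the catalytic and the allosteric sites. RRM1 (chr11:4094707-4138932, plus strand) measured 184, 156 and 241 CPM with DMSO, 178, 90.8 and 235 CPM with Ento, 157, 72.4 and 143 CPM with AZD and 84.9, 38.2 and 113 CPM with Ento+AZD. Only the combined libraries lay fully below those of DMSO. The log2 fold change was −1.42 ± 0.16 with Ento+AZD (adjusted p = 2.01e-05) and −0.71 ± 0.15 with AZD (adjusted p = 0.00633), the largest decrease of an enzyme with a single agent.

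RRM2B encodes the alternative small subunit, which is made outside S phase and upon p53 activation. It moved in the opposite direction and was higher with Ento+AZD, at 221, 199 and 219 CPM compared to 172, 157 and 182 CPM with DMSO (log2 fold change 0.32 ± 0.07, adjusted p = 0.00276). With Ento RRM2B was higher as well (0.27 ± 0.07, adjusted p = 0.0330), and with AZD the change was 0.05 ± 0.07 (adjusted p = 0.637). Per kilobase of transcript, the RRM2B level was 0.504, 0.480 and 0.330 times the RRM2 level in the DMSO libraries and 1.35, 4.09 and 0.920 times in the Ento+AZD libraries. The ratio thus lay near or above 1 only with combined exposure or in replicate 2 of the single agents (1.01 with Ento and 1.03 with AZD). The ratio of RRM2 to RRM1 per kilobase was 1.37 ± 0.142 with DMSO and 1.16 ± 0.292 with Ento+AZD (SD, n = 3) and overlapped between these groups.

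**Figure D2:**
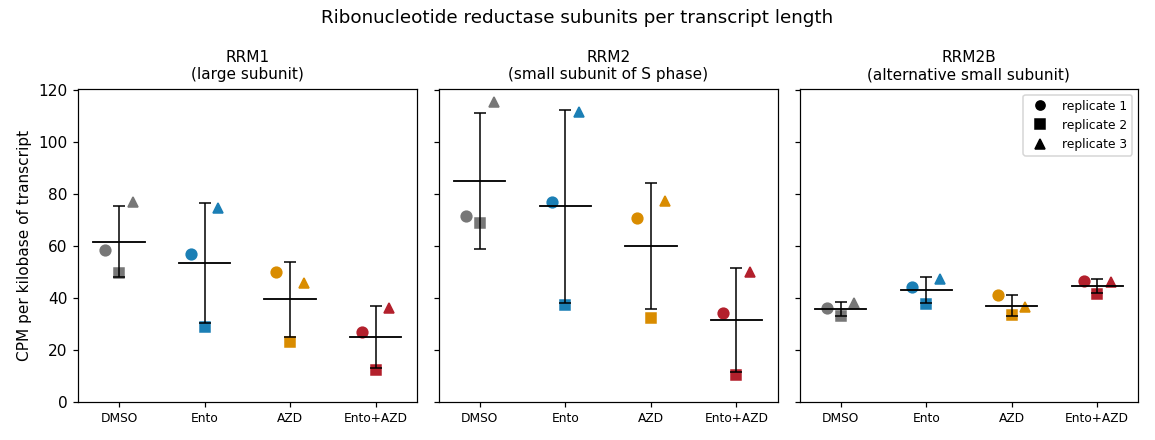
Level of the ribonucleotide reductase subunits in CPM per kilobase of the canonical transcript (y axis) in each library, by exposure (x axis), with means and SDs (n = 3). RRM1 and RRM2 are lowest with Ento+AZD, where RRM2B measured 44.6 ± 2.63 compared to 35.6 ± 2.57 with DMSO.

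DUT hydrolyses dUTP to the dUMP that TYMS methylates, so both act in a row on the way to thymidylate. TYMS (chr18:657653-673578, plus strand) measured 48.3, 46.5 and 73.6 CPM with DMSO and 26.0, 7.43 and 37.3 CPM with Ento+AZD (log2 fold change −1.45 ± 0.23, adjusted p = 2.37e-04). The decrease was seen in all 3 replicate numbers, at −0.89 and −0.98 on the log2 scale in replicates 1 and 3 and −2.63 in replicate 2. With Ento the TYMS values were 53.3, 26.1 and 75.6 CPM, and with AZD 47.0, 20.4 and 52.7 CPM. Both single agents overlapped with DMSO. Exons of ENOSF1 on the opposite strand cover 967 bases, or 39.9%, of the TYMS exons. The use of the strand in counting was not stated in the sources used here, so the assignment of reads within these shared bases is uncertain. ENOSF1 was also lower with Ento+AZD (−1.15 ± 0.18, adjusted p = 1.79e-04).

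DUT (chr15:48331011-48343373, plus strand) measured 160.5, 139 and 184 CPM with DMSO and 96.6, 63.6 and 116 CPM with Ento+AZD (−0.85 ± 0.11, adjusted p = 5.10e-05). With Ento it measured 147, 90.1 and 194 CPM. It was lower with AZD, at 134, 90.5 and 137 CPM (−0.44 ± 0.11, adjusted p = 0.0108), and none of these libraries reached the lowest DMSO value. The same held for 12.7% of all genes in this direction. The antisense transcript DUT-AS1 shares 533 bases with DUT exons, or 14.5%.

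TK1 and DCK are the cytosolic salvage kinases, of which TK1 takes thymidine and follows the cell cycle, whereas DCK accepts deoxycytidine, deoxyadenosine and deoxyguanosine and is made throughout it. TK1 (chr17:78174091-78187233, minus strand) measured 67.2, 61.2 and 98.4 CPM with DMSO, 71.4, 31.7 and 100.6 CPM with Ento, 61.4, 28.5 and 67.7 CPM with AZD, and 32.4, 11.2 and 44.7 CPM with Ento+AZD. The log2 fold change was −1.53 ± 0.20 with Ento+AZD (adjusted p = 5.50e-05) and −0.62 ± 0.19 with AZD (adjusted p = 0.0331). The decrease with AZD did not pass without the libraries numbered 2 (−0.34, adjusted p = 0.0523).

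DCK (chr4:70992538-71030914, plus strand) measured 211, 189.8 and 207 CPM with DMSO and 219, 188 and 246 CPM with Ento, compared to 168, 167 and 156 CPM with AZD and 167, 154 and 172 CPM with Ento+AZD. All 6 libraries with AZD thus lay below all 6 without it. For AZD against DMSO, a separation in this direction held for 12.7% of all genes. The share for all 6 against all 6 is not given here. The change was −0.31 ± 0.08 with AZD (adjusted p = 0.0162) and −0.31 ± 0.08 with Ento+AZD (adjusted p = 0.00810), and Ento+AZD differed from AZD by 0.00 (95% confidence interval −0.17 to 0.17). In the direct comparison of the single agents, DCK was the only enzyme past the threshold, 0.40 ± 0.08 higher with Ento than with AZD (adjusted p = 0.00405), where 8.99% of all genes were higher. Without AZD replicate 3 this call and the decrease with AZD did not pass (adjusted p = 0.0508 and 0.134). Exons of MOB1B on the same strand share 199 bases with DCK.

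CAD joins the first steps of pyrimidine synthesis in 1 protein and was the only enzyme called higher with Ento+AZD. CAD (chr2:27217369-27243943, plus strand) measured 139, 216 and 189 CPM with DMSO and 218, 212 and 237 CPM with Ento+AZD (0.31 ± 0.10, adjusted p = 0.0246). The groups overlapped, and 2 of the 3 replicate numbers were higher. With Ento the values were 214, 242 and 211 CPM (0.31 ± 0.10, adjusted p = 0.0760) and with AZD 193, 234 and 223 CPM (0.27 ± 0.10, adjusted p = 0.0742). DMSO replicate 1 was the lowest of all 12 libraries, and without it the increase with Ento+AZD was 0.18 (adjusted p = 0.147). It did not pass without Ento+AZD replicate 1 (adjusted p = 0.131) or replicate 3 (adjusted p = 0.110) either. Nor did it pass when only the DMSO and Ento+AZD groups were fitted, where no enzyme was called higher.

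MTHFD1 interconverts the folate-bound one-carbon units of the cytosol and SHMT1 draws them from serine. MTHFD1 (chr14:64388031-64463457, plus strand) measured 73.9, 89.7 and 114 CPM with DMSO and 50.4, 35.7 and 62.2 CPM with Ento+AZD (−0.93 ± 0.12, adjusted p = 4.79e-05). SHMT1 (chr17:18327860-18363563, minus strand) measured 43.7, 45.0 and 51.7 CPM with DMSO and 37.8, 30.3 and 42.1 CPM with Ento+AZD (−0.36 ± 0.09, adjusted p = 0.00439). With Ento and AZD the MTHFD1 libraries lay between 63.5 and 108 CPM and between 60.7 and 91.0 CPM, and those of SHMT1 between 35.8 and 50.1 CPM and between 38.6 and 52.6 CPM. Neither gene passed with a single agent, with log2 fold changes from −0.27 to −0.04. Reads of the copy SHMT1P1 came to 1.93% to 3.32% of the SHMT1 counts. Of their mitochondrial relatives, SHMT2 fell with Ento+AZD by 0.75 ± 0.13 (adjusted p = 3.67e-04) and MTHFD2 by 0.73 ± 0.08 (adjusted p = 2.62e-05) on the log2 scale, whereas MTHFD2L rose by 0.37 ± 0.10 (adjusted p = 0.0101).

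**Figure D3:**
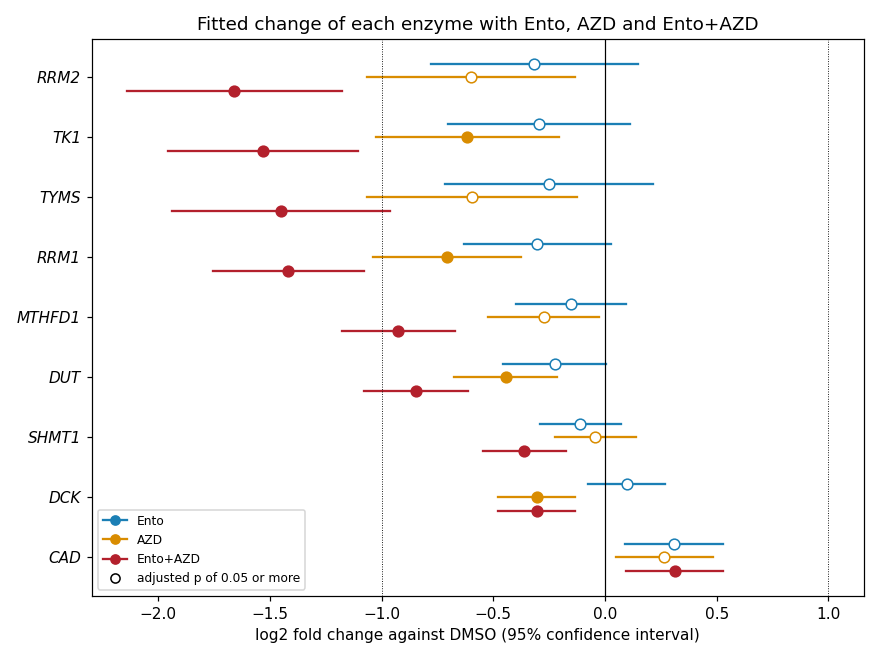
Fitted log2 fold change against DMSO (x axis) of each enzyme with Ento, AZD and Ento+AZD, with 95% confidence intervals. Filled points have an adjusted p under 0.05 and dotted lines mark a log2 fold change of 1 in either direction. The combined exposure passes for all 9 enzymes, AZD for 4 and Ento for none.

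Ento alone left no enzyme past the threshold (0 of 9 in edgeR and 0 in DESeq2), compared to 8.32% of all genes in either direction in edgeR. At an unadjusted p under 0.05 there was 1 of 9 in edgeR and 3 in DESeq2, compared to 4098 and 3368 of all 16835 genes. The log2 fold changes lay between −0.32 for RRM2 and 0.31 for CAD. For RRM2, TK1 and TYMS, replicates 1 and 3 lay close to their DMSO libraries (log2 ratios from −0.05 to 0.14), whereas replicate 2 had ratios of −0.88, −0.95 and −0.83. AZD alone lowered 4 of the 9 enzymes, RRM1, TK1, DUT and DCK, compared to 12.7% of all genes. RRM2 (−0.60 ± 0.22, adjusted p = 0.0621) and TYMS (−0.60 ± 0.22, adjusted p = 0.0656) did not pass, and their log2 fold changes were −0.30 and −0.27 without the libraries numbered 2 and −0.19 and −0.20 without DMSO replicate 2 alone. Without the libraries numbered 2 in all groups, 0 of 9 enzymes passed with Ento and 4 with AZD (RRM1, DUT and DCK lower, CAD higher), compared to 3.58% and 15.1% of all genes. Without the replicate block 0 of the 9 passed with AZD (edgeR), compared to 1.94% of all genes. At an unadjusted p under 0.05 there was 1 enzyme in that run, for which the share of all genes is not given here. The smallest adjusted p was 0.120 for DCK. The calls with AZD rest on single libraries too, since 0 of 9 passed without AZD replicate 3 and 7 without DMSO replicate 1, compared to 7.26% and 20.6% of all genes in these runs.

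Adding AZD to Ento lowered 7 of the 9 enzymes, compared to 12.2% of all genes. Of these 7, only DCK and MTHFD1 did not overlap between the groups. The share of all genes without overlap in this comparison is not given here, so this count has no background. RRM2 (−1.34 ± 0.22), TK1 (−1.24 ± 0.20), TYMS (−1.20 ± 0.23) and RRM1 (−1.11 ± 0.16) were DEGs with adjusted p from 5.27e-04 to 0.00251 (edgeR), compared to 2.47% of all genes. SHMT1 differed by −0.25 (adjusted p = 0.0537) and CAD by 0.00 (95% confidence interval −0.21 to 0.22). Within replicates 1, 2 and 3 the log2 ratio of RRM2 was −1.17, −1.87 and −1.16, so that the decrease was seen in each of them. Adding Ento to AZD lowered 7 of the 9 as well, all but DCK and CAD, compared to 6.04% of all genes. The Ento+AZD and AZD libraries overlapped for all 7 of them. RRM2 was the only DEG (−1.06 ± 0.22, adjusted p = 0.00889), compared to 0.422% of all genes. Without the libraries numbered 2, 7 of 9 still passed against Ento, compared to 16.8% of all genes. RRM2 (−1.16), TK1 (−1.16), RRM1 (−1.06) and TYMS (−1.03) were DEGs in that run. Against AZD 5 of 9 passed without those libraries, compared to 6.36% of all genes. DUT (adjusted p = 0.0575) and SHMT1 (adjusted p = 0.0769) did not pass, and RRM2 (−0.85) was no longer a DEG. Without the replicate block 0 of the 9 passed in either of these comparisons, where 1.22% of all genes passed against Ento and 0.101% against AZD. At an unadjusted p under 0.05 there were 6 enzymes against Ento and 1 against AZD (edgeR), for which the shares of all genes are not given here. The smallest adjusted p was 0.0737 for DCK against Ento and 0.363 for MTHFD1 against AZD. In the comparison with AZD 1 enzyme, MTHFD1, passed without AZD replicate 1, compared to 3.44% of all genes.

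Whether the combined change differed from the sum of the single changes was tested as an interaction on the log2 scale. No enzyme passed (0 of 9, and 0% of all 16835 genes, in edgeR). At an unadjusted p under 0.05 there were 3 enzymes, RRM2 (−0.74 ± 0.31, adjusted p = 0.476), TK1 (−0.62 ± 0.27, adjusted p = 0.497) and MTHFD1 (−0.50 ± 0.16, adjusted p = 0.444), and 1652 genes in all. DESeq2 gave 0 enzymes and 7 genes adjusted, and 1 enzyme and 1198 genes unadjusted. The 9 estimates were all below 0, between −0.74 and −0.10. Without DMSO replicate 2, TYMS, RRM1, RRM2, TK1 and MTHFD1 passed, with estimates from −1.18 to −0.69, compared to 1.23% of all genes in that run. Without the libraries numbered 2 in all groups 0 of 9 passed (edgeR, with estimates from −0.86 to −0.08).

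**Figure D4:**
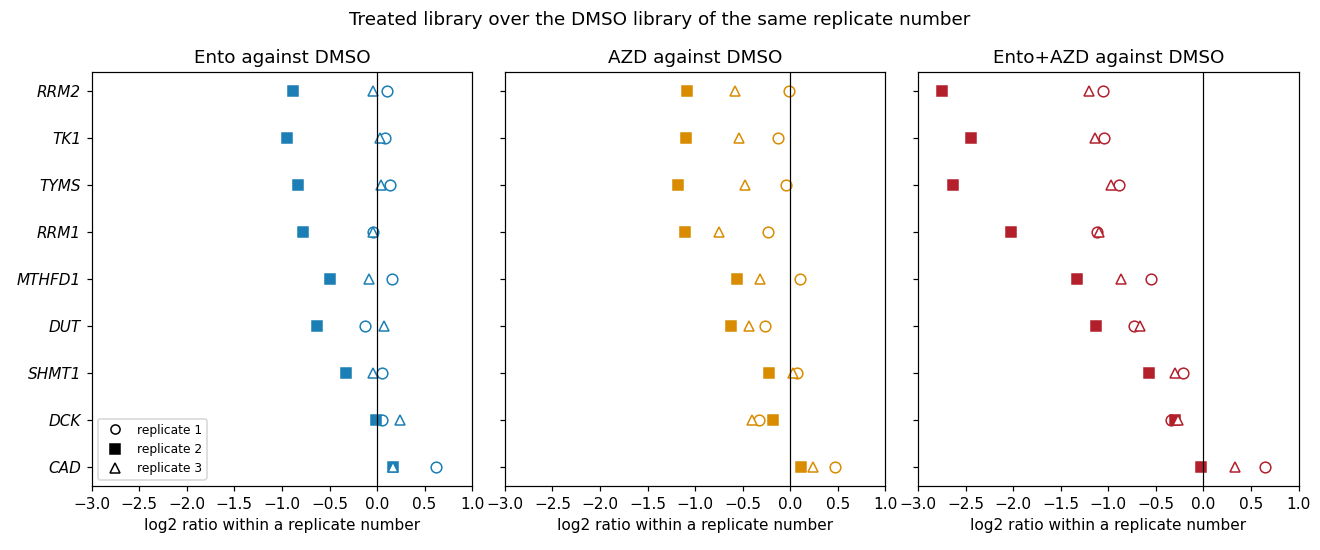
Log2 ratio of each exposed library to the DMSO library of the same replicate number (x axis) for each enzyme. Filled squares are replicate 2, which gives the lowest ratio for RRM2, TK1, TYMS and RRM1 in all 3 panels, with −2.75 for RRM2 with Ento+AZD.

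The proliferation reference genes moved with the enzymes. These genes were chosen with earlier results of these data known, so their decrease is no independent result. All 8 were lower with Ento+AZD (median −1.18), compared to 20.8% of all genes. Among them were the cyclin CCNA2 (−1.87 ± 0.22, adjusted p = 2.38e-05), the topoisomerase TOP2A (−1.51 ± 0.22, adjusted p = 1.10e-04) and the polymerase clamp PCNA (−1.30 ± 0.17, adjusted p = 6.01e-05). The median log2 ratios within replicates 1, 2 and 3 were −0.73, −1.33 and −0.87 for the 9 enzymes and −0.73, −1.81 and −0.97 for the 8 reference genes, while those of all tested genes lay between −0.01 and 0.02. With AZD 7 of 8 reference genes were lower in edgeR and 4 of 8 passed in DESeq2, compared to 12.7% of all genes that were lower in edgeR. With Ento 0 of 8 passed in edgeR and 0 in DESeq2, compared to 8.32% of all genes in edgeR. At an unadjusted p under 0.05 there was 1 in edgeR and 0 in DESeq2, compared to 4098 and 3368 of all 16835 genes. The part of proliferation in the enzymes' decrease was not tested.

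Among themselves, the enzymes formed a graded series across the 12 libraries. Likeness was measured as the root mean square difference of centred log2 CPM. It is small where 2 genes move by the same amounts in the same libraries, and also where both hardly move. The spread of a gene around its own mean, in the same unit, was 0.204 for DCK, 0.225 for SHMT1 and 0.204 for CAD, compared to 0.927 for RRM2. RRM2 and TYMS were nearest to each other (0.0800), followed by TK1 with TYMS (0.0855), RRM1 with TK1 (0.160), DUT with MTHFD1 (0.170) and DCK with SHMT1 (0.221). CAD was the farthest from all enzymes but DCK and SHMT1, with 1.01 to RRM2. Outside the 9, the genes nearest to their mean pattern were the histone chaperone ASF1B (0.0645), the nuclease and helicase DNA2 (0.0693), the condensin subunit NCAPH2 (0.0753), the histone chaperone NASP (0.0869) and the clamp loader subunit RFC2 (0.0914), where the median over 16826 genes was 0.571. The mean pattern itself had a spread of 0.509, which is the distance to it of a gene that does not move. All libraries share 1 cell line and the depth given above.

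Per kilobase of canonical transcript, the levels with DMSO ran from RRM2 (85.1 ± 26.1 CPM per kilobase) over DCK (80.9 ± 4.58), DUT (75.4 ± 10.6), RRM1 (61.6 ± 13.8), TK1 (52.8 ± 14.0), TYMS (34.8 ± 9.38), MTHFD1 (29.3 ± 6.37) and CAD (24.9 ± 5.34) to SHMT1 (18.5 ± 1.70). All 8 neighbouring pairs in this order overlapped. With Ento+AZD, DCK came first (65.5 ± 3.69) and did not overlap with DUT (43.0 ± 12.5), followed by RRM2 (31.5 ± 20.0) and CAD (30.5 ± 1.84), whereas TYMS (14.6 ± 9.36) and SHMT1 (14.5 ± 2.37) came last. The order after DCK did not separate neighbours. TK1 stood at 0.651 ± 0.156 of the DCK level with DMSO and at 0.308 ± 0.167 with Ento+AZD (SD, n = 3).

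The promoters of 3 of the enzymes that fell most and of CAD, which was not called lower, are shown because these members moved together or apart. The RefSeq sequences (GRCh38.p14) give the 130 bases before an annotated start, in the direction of the gene, at chr18:657523-657652 (plus strand) for TYMS, chr2:10122609-10122738 (plus) for RRM2, chr17:78187053-78187182 (minus) for TK1 and chr2:27217239-27217368 (plus) for CAD. Where a gene had several annotated starts, the start with the most motif matches in these bases is shown. Capitals mark a match of an E2F-type motif in TYMS and of the CCAAT box in RRM2 and, on the opposite strand, as ATTGG, in TK1.
TYMS: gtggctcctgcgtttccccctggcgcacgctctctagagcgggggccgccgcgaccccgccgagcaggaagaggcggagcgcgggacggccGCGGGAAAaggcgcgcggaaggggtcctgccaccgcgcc
RRM2: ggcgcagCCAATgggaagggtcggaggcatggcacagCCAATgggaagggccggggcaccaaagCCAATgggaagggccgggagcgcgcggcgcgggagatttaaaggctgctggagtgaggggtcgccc
TK1: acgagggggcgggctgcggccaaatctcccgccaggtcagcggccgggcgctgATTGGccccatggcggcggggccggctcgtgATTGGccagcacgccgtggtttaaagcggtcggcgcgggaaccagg
CAD: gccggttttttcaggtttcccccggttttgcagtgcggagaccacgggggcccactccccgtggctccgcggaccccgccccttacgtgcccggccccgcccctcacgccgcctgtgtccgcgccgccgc

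Both strands of all RefSeq promoter windows (250 bases before and 50 after the start, 35116 windows) were searched. The 9 enzymes had 14 windows, at least 1 each, and none of the motifs contains another. The E2F-type letters TTTCCCGC, TTTGGCGC, TTTCGCGC or TTTGCCGC were found for TYMS, DUT and DCK (3 of the 14 windows) and in 3.31% of all windows. CCAAT was found in 7 of the 14 windows, of 6 enzymes with RRM1, RRM2 and TK1 among them, and in 34.6% of all windows. The E box CACGTG was found for DCK and MTHFD1 (2 of 14 windows, 7.26% of all), and TTTGAA for DUT and RRM1 (2 of 14 windows, 15.2% of all). RRM2 held 3 CCAAT boxes within the stretch shown, each followed by the same letters, and TK1 held 2. CAD had no match within the stretch shown and 1 CCAAT box at the far end of its window. No single motif was found for all of RRM2, TK1, TYMS and RRM1, and a match of letters does not show that a factor binds.

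Of 57 further genes of nucleotide and folate metabolism, 54 were tested. With Ento+AZD 23 of them were lower and 7 higher (median −0.27), compared to 20.8% and 19.2% of all genes, or 40.0% in either direction. Ento alone changed 10 of the 54 (8 lower, 2 higher) and AZD 15 (7 lower, 8 higher), where 8.32% and 22.2% of all genes passed. Without the replicate block 16 of the 54 passed with Ento+AZD, 0 with Ento and 1 with AZD (edgeR). The shares of all genes in that run were 14.2%, 0.214% and 1.94%.

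Of the genes that prepare or guard deoxynucleotides, 4 of 12 were lower and 2 higher with Ento+AZD (median −0.19), close to the shares of all genes. DCTD, which makes dUMP from dCMP, fell from 40.0 ± 1.43 to 23.9 ± 1.47 CPM (SD, n = 3), a log2 fold change of −0.75 ± 0.11 (adjusted p = 1.08e-04). DTYMK, the kinase after TYMS and TK1, fell by 0.52 ± 0.14 (adjusted p = 0.0104), and NUDT1, which removes oxidised nucleotides, by 0.43 ± 0.12 (adjusted p = 0.00960). SAMHD1, which degrades dNTPs, rose from 125, 169 and 67.1 CPM with DMSO to 195, 224 and 191 CPM (0.83 ± 0.18, adjusted p = 0.00274), and it was higher with AZD as well (0.65 ± 0.18, adjusted p = 0.0229). The mitochondrial thymidine kinase TK2 did not pass (−0.53 ± 0.21, adjusted p = 0.0513).

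Of the steps after CAD in pyrimidine synthesis (DHODH, UMPS, CTPS1 and CTPS2), 0 of 4 passed with any exposure against DMSO in edgeR or DESeq2. In edgeR 8.32% of all genes passed with Ento, 22.2% with AZD and 40.0% with Ento+AZD. At an unadjusted p under 0.05 either tool gave 1 with Ento+AZD and 0 with each single agent. Of all 16835 genes, 8144 with Ento+AZD, 4098 with Ento and 6073 with AZD were under that limit in edgeR. The log2 fold changes of the 4 genes with Ento+AZD lay between −0.30 and 0.15. In purine synthesis 5 of 13 genes were lower with Ento+AZD and 0 higher (median −0.16), where 40.0% of all genes passed in either direction. PRPS2, which makes the ribose donor of both pathways, fell by 0.99 ± 0.10 (adjusted p = 9.63e-06) and GMPS, the last step to GMP, by 0.79 ± 0.08 (adjusted p = 1.64e-05). ADSS1 had the largest fold change of this list (−1.87 ± 0.26, adjusted p = 8.56e-05) at a low level, with 8 to 13 counts per Ento+AZD library compared to 35 to 65 with DMSO, and it was lower with Ento too (−1.92 ± 0.25, adjusted p = 4.85e-04).

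In the folate and one-carbon list 7 of 15 tested genes were lower and 4 higher with Ento+AZD (median −0.32), compared to 20.8% and 19.2% of all genes. GGH, which trims the glutamate tail of folates, fell from 22.2 ± 5.81 to 9.83 ± 3.20 CPM (−1.19 ± 0.10, adjusted p = 5.12e-06), while FPGS, which adds that tail, rose by 0.41 ± 0.09 (adjusted p = 0.00292). The neighbouring steps of serine synthesis also parted, as PSAT1 fell by 0.89 ± 0.10 (adjusted p = 1.64e-05) and PSPH rose by 0.79 ± 0.10 (adjusted p = 3.82e-05). PHGDH, another serine synthesis gene of this list, had 0 counts in all libraries but AZD replicate 3, which had 1, and was not tested. PSPH measured 36.2, 39.9 and 31.2 CPM with DMSO and 60.4, 62.0 and 62.6 CPM with Ento+AZD. GGH, PSAT1 and MTHFD2 were lower and PSPH higher with each single agent as well.

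The salvage and transport list had 7 of 10 genes lower and 1 higher with Ento+AZD (median −0.39), compared to the same 20.8% and 19.2%. ADA, which deaminates adenosine and deoxyadenosine, fell from 15.4, 12.3 and 13.4 CPM to 4.16, 3.81 and 4.29 CPM (−1.74 ± 0.16, adjusted p = 6.08e-06), with replicate 2 close to the other libraries. It fell with AZD (−1.06 ± 0.15, adjusted p = 5.18e-04) and with Ento (−0.64 ± 0.14, adjusted p = 0.0147). The purine salvage enzymes went opposite ways, as HPRT1 fell by 0.66 ± 0.08 (adjusted p = 4.88e-05) and APRT rose by 0.42 ± 0.11 (adjusted p = 0.00717). UCK2, a uridine and cytidine kinase, fell by 0.51 ± 0.10 (adjusted p = 8.29e-04).

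**Figure D5:**
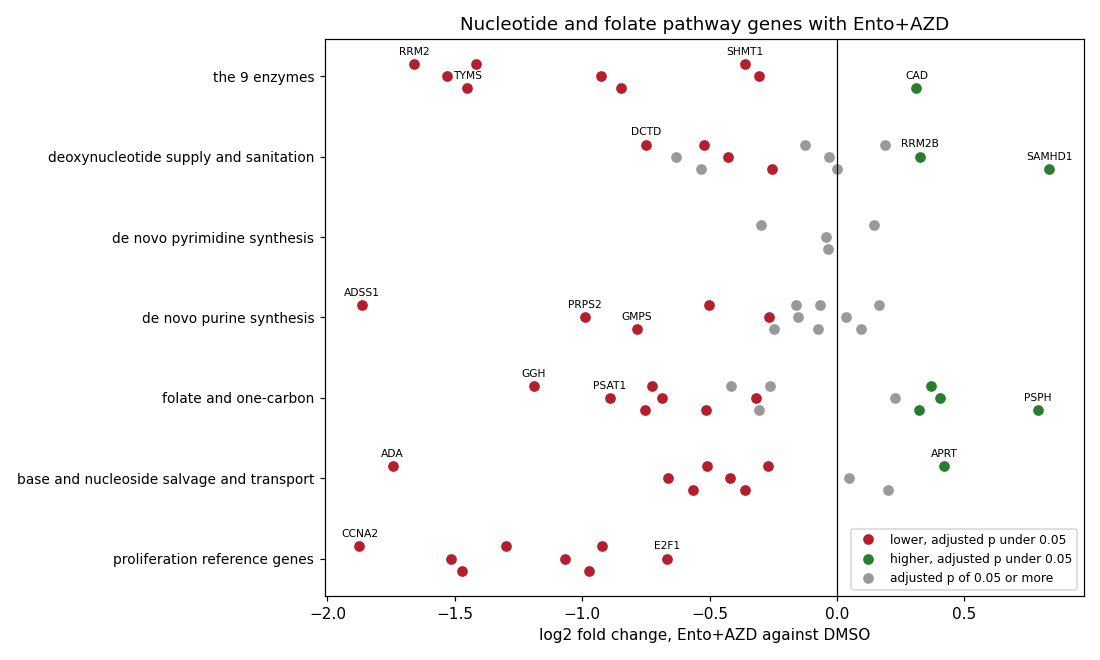
Log2 fold change with Ento+AZD against DMSO (x axis) of each tested gene of the lists (rows). Red and green points passed the test and grey points did not. The 9 enzymes reach −1.66, whereas the de novo pyrimidine genes lie between −0.30 and 0.15.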

How the data were processed

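The authors deposited raw read counts by gene symbol. They had selected polyadenylated RNA, sequenced single reads of 75 bases, cleaned these with TrimGalore (CutAdapt) and used Rsubread for alignment to GRCh38.p13 and for counting. Strand and multi-mapping settings are not given in the sources used here, and the submitters' processing notes name hg19 as well, with no role. A deposited table of normalized log2 values was not used. Groups and replicate numbers came from the sample labels.

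Counts were filtered with filterByExpr by group (minimum count 10, minimum total 15), normalized by TMM and tested with the quasi-likelihood F-test of edgeR 4.0.16 (R 4.3.3, limma 3.58.1) in 1 model of all 12 libraries with group and replicate number as terms, with Benjamini-Hochberg adjustment over 16835 genes. The SE of a log2 fold change was its size over the root of F. DESeq2 1.42.0 was an alternative. Libraries with the same replicate number deviated together from their group means (r from 0.213 to 0.703, 18 pairs), compared to −0.627 to 0.325 for 36 pairs with different numbers, so the numbers from the labels were treated as pairing the libraries. On simulated counts, 85 of 100 genes given a log2 change of 1 and 95 of 99 given 2 were recovered for Ento+AZD against DMSO. The simulated counts held no difference between replicate numbers, so this recovery does not describe data with a shift like that of replicate 2.

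The enzymes, lists, tests and alternatives were chosen with earlier results of these data known. Besides the 9 enzymes, named genes were RRM2B, TK2, DTYMK, SHMT2 and MTHFD2, another gene that is not reported here, up to 3 genes per list and direction with the smallest adjusted p in Ento+AZD against DMSO, genes with opposite calls for the single agents (none were found), and the 5 genes nearest to the enzymes' mean pattern (log2 CPM with a prior count of 2). ENOSF1 and the genes that overlap or copy an enzyme were named for that reason. Coordinates and transcript lengths are those of GENCODE 44 on GRCh38.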

Additional observations from a re-analysis of the deposited data

How the results depend on the processing

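With Ento+AZD against DMSO, the 8 decreases kept their direction and their side of the threshold in each run without 1 library, with DESeq2, with RLE normalization, without the filter on low counts and without the libraries numbered 2 (an alternative added after seeing the data). Without the replicate block (no pairing of the libraries by number) the 9 enzymes gave 1 call with Ento+AZD and 0 with AZD. They gave 0 for Ento+AZD against Ento and 0 against AZD. The 54 further genes gave 16 with Ento+AZD, 1 with AZD and 0 with Ento. Of all genes, 14.2% passed in that run with Ento+AZD, 1.94% with AZD and 0.214% with Ento. For Ento+AZD against Ento and against AZD, 1.22% and 0.101% of all genes passed. Without the filter on low counts the enzymes gave 4 calls with Ento, 8 with AZD, 5 for Ento against AZD and 4 for the interaction. The further genes gave 17 with Ento. Of all genes, 7.43% passed without the filter with Ento, 13.7% with AZD, 10.1% for Ento against AZD and 0.900% for the interaction. Fitted on the compared groups alone, Ento against AZD gave 5 calls (24.4% of all genes), and Ento+AZD against DMSO gave 8, all lower (30.1% of all genes). Without the libraries numbered 2, Ento+AZD against AZD gave 5 calls and Ento against AZD 3 among the enzymes, where 6.36% and 10.4% of all genes passed. The further genes gave 5 with Ento and 9 with AZD, where 3.58% and 15.1% of all genes passed. The cause of these shifts was not tested.

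Leaving out 1 library at a time, the calls among the 9 enzymes ranged from 0 to 1 with Ento (highest without DMSO replicate 2), from 0 to 7 with AZD, from 8 to 9 with Ento+AZD, from 7 to 8 for Ento+AZD against Ento, from 1 to 7 against AZD, from 0 to 2 for Ento against AZD and from 0 to 5 for the interaction. The share of all genes moved between runs too. With Ento+AZD it lay between 28.3% without Ento+AZD replicate 3 (8 enzymes) and 39.2% without AZD replicate 1 (9 enzymes). For Ento+AZD against Ento it lay between 8.13% without Ento replicate 3 (7 enzymes) and 23.7% without DMSO replicate 3 (8 enzymes). With AZD it was 7.26% without AZD replicate 3 (0 enzymes) and 20.6% without DMSO replicate 1 (7 enzymes). For Ento+AZD against AZD it was 3.44% without AZD replicate 1 (1 enzyme) and 13.3% without DMSO replicate 1 (7 enzymes). Without DMSO replicate 2 it was 7.27% with Ento, 17.1% for Ento against AZD and 1.23% for the interaction. Among the further genes the calls ranged from 2 (without Ento replicate 1) to 15 with Ento, from 3 (without AZD replicate 2) to 16 with AZD and from 24 to 32 with Ento+AZD. In the runs at these ends 2.56% and 9.80% of all genes passed with Ento, 10.7% and 24.0% with AZD, and 32.7% and 35.3% with Ento+AZD.

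Some differences near 0, none of them called, changed sign. Without 1 library, the log2 difference with Ento ranged from −0.48 to 0.15 for TYMS, −0.55 to 0.083 for RRM2, −0.50 to 0.064 for TK1 and −0.31 to 0.030 for MTHFD1, each highest without DMSO replicate 2, and without all libraries numbered 2 they were 0.078, 0.016, 0.049 and 0.020. SHMT1 with AZD ranged from −0.11 to 0.061 and was 0.039 without those libraries. CAD ranged from −0.070 to 0.12 for Ento+AZD against Ento, from −0.032 to 0.16 against AZD and from −0.023 to 0.11 for Ento against AZD, and DCK from −0.078 to 0.080 for Ento+AZD against AZD. CAD for Ento+AZD against Ento was −0.00074 without the block, −0.0020 without the filter and −0.00077 on the compared groups alone, and DCK against AZD was −0.00093 with RLE, −0.0035 without the filter and −0.00089 with DESeq2.

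The enzymes had 156 to 9552 counts in each library, and the precision rests on 3 libraries per group.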
